A study of Homo sapiens with 8 samples.

Results

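The promoters of wild-type RPE1 cells were described by how strongly each was recovered in OGAP-seq, a pull-down of oxidatively damaged DNA, relative to unselected input DNA. RPE1 is an immortalised cell line from human retinal pigment epithelium. The series holds 8 libraries in 4 groups of 2, and the comparison here used the 4 wild-type ones: WT OGAP replicates 1 and 2 against WT input replicates 1 and 2. WT cells received no doxycycline, and the other 4 libraries are OGAP and input DNA from RPE1 cells after doxycycline, labelled NuMA (TDIF)-KD, here called KD. NuMA is a nuclear protein known for organising the poles of the mitotic spindle. Whether the WT cells carry the inducible construct is not given in the sources used here, and the cells received no other treatment that the labels name. All 19957 promoter windows of the deposited count table, each 2001 bp long, were taken without selection, and 17130 of them had enough reads to be tested. The labels do not say whether replicates came from separate cultures, so the p-values below measure the spread between libraries, which may be technical. That spread was mostly pooled over windows and over all 8 libraries, KD included. It therefore says little about the spread at a single window. The libraries hold DNA, so marker genes cannot check the cell type.

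Guanine is the base most easily oxidised, and its main product, 8-oxoguanine, pairs with adenine and causes G-to-T changes unless it is removed. The glycosylase OGG1 excises 8-oxoguanine and leaves an abasic (AP) site, which APEX1 cuts so that a polymerase and a ligase can refill the gap. AP-seq methods attach a biotin tag to AP sites and pull down the tagged fragments. Treating the DNA with OGG1 first brings 8-oxoguanine into the same pull-down, and the labels do not spell out the steps used here. Many human promoters lie in CpG islands, stretches rich in G, C and the CpG dinucleotide, while promoters of tissue-restricted genes are more often poor in CpG.

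The sequences below show the range of base composition among promoters called higher and lower in the pull-down. In each direction they are the 3 windows with the smallest p among named windows that overlap no other and have a sequence. EFCAB9 was added after its values were seen. It is the poorest in GC among those higher windows described below for their smallest p that have a sequence. Each is the 250 bases before the gene start in RefSeq (GRCh38.p14), 5′ to 3′ on the gene's strand, with every CpG in capitals. The first 4 are from windows higher in OGAP than in input: USP11 (chrX:47232759-47233008, plus strand), DBF4B (chr17:44708415-44708664, plus strand), GSTA4 (chr6:52995285-52995534, minus strand) and EFCAB9 (chr5:172193922-172194171, plus strand). The last 3 are from windows lower in OGAP: EBF4 (chr20:2692530-2692779, plus strand), ATRNL1 (chr10:115093115-115093364, plus strand) and AKIRIN1 (chr1:38991026-38991275, plus strand).
USP11: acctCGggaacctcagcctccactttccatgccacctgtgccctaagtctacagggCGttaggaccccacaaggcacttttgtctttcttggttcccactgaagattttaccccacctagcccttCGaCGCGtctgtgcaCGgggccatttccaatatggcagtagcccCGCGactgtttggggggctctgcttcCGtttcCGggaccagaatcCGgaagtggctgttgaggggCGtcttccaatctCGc
DBF4B: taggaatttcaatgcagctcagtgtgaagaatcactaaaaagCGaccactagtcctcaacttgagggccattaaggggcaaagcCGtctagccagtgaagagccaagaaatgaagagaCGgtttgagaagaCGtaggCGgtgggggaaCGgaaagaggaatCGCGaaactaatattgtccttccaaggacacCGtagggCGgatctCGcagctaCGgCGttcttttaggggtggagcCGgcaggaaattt
GSTA4: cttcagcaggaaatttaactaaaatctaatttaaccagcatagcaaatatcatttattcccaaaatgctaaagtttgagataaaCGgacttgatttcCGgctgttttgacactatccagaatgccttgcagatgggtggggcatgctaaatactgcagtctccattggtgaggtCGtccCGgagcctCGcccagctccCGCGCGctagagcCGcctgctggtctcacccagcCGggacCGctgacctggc
EFCAB9: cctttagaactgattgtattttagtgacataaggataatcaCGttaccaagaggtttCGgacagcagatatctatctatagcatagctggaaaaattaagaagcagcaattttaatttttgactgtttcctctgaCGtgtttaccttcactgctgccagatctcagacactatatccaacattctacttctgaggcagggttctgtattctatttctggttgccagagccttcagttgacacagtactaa
EBF4: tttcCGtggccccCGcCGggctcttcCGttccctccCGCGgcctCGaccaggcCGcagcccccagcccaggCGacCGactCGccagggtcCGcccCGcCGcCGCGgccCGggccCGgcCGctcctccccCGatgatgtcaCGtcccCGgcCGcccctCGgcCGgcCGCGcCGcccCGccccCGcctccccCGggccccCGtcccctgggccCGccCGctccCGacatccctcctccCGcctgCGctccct
ATRNL1: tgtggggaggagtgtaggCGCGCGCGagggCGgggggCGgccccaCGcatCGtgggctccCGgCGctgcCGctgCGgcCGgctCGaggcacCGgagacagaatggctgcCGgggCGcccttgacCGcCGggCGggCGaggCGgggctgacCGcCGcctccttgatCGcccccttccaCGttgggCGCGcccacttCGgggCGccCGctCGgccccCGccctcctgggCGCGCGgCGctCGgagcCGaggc
AKIRIN1: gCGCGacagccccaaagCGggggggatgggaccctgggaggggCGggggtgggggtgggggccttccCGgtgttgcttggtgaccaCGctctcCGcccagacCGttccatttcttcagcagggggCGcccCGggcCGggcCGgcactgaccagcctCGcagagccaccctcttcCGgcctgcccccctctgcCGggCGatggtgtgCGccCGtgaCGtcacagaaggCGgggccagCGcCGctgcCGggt
The USP11 sequence is 57.6% G or C with 13 CpG, DBF4B 50.4% with 14 CpG, GSTA4 50.4% with 11 CpG, and EFCAB9 38.8% with 3 CpG. The lower promoters printed are richer in G and C: EBF4 is 82.8% G or C with 37 CpG, ATRNL1 80% with 39 CpG, and AKIRIN1 74.4% with 23 CpG. Of the other windows described below for their smallest p, the higher UTP25 and MED18 are both at 54.4%. The lower ZBTB48, at 63.2%, is the lowest in GC of its direction among those with a sequence. Windows named from gene lists reach lower values in both directions. Over 300 bases, the lower FOXD4 is at 55.3% and the higher CYP2C8 at 34%.

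The WT OGAP libraries held 368593 and 397173 reads in promoter windows, with medians of 17 and 18 reads per window. The WT input libraries held 727901 and 771138 reads, with medians of 37 and 38. The replicates of each group differed by more than counting noise, with a chi-square of 1.91 per degree of freedom in OGAP and 2.14 in input. Across windows the replicates had a Spearman correlation of 0.637 in OGAP and 0.711 in input, and the windows share library depth and base composition. The OGAP values therefore carry the larger counting error. In simulated data a change of a single window had to be large to pass: of 100 simulated 2-fold changes 17% were recovered, and of 100 simulated 4-fold changes 89%. These stood among 17130 windows and were far fewer than the windows called below. All were placed in windows at or above the median WT input level, and the rates were not split by read depth. No window below that level was given a change. The rates may therefore not hold for the real data or for windows with few reads.

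Which promoters were over- or under-represented was asked first window by window. With edgeR's quasi-likelihood test at an adjusted p under 0.05, 2346 of the 17130 windows, or 13.7%, differed between WT OGAP and WT input. The larger part, 1584 windows or 9.25%, was higher in OGAP, and 762 windows or 4.45% were lower. Windows called higher had a median log2 change of 1.34, with 1418 of them changed at least 2-fold and 174 at least 4-fold. Windows called lower had a median log2 change of -1.28, with 724 changed at least 2-fold and 33 at least 4-fold. In reads scaled to a common library size (CPM), both OGAP values lay on one side of both input values in 1582 of the windows called higher and 759 of those called lower, against 9692 or 56.6% of all tested windows. The calls depend on single libraries: 383 of the higher windows (24.2%) and 43 of the lower windows (5.64%) remained called when each WT library was left out in turn. Without WT input replicate 2 the counts were 683 higher and 207 lower, without WT OGAP replicate 2 they were 851 and 359, without WT input replicate 1 they were 1030 and 494, and without WT OGAP replicate 1 they were 1070 and 533. DESeq2 called 742 higher and 142 lower.

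**Figure D1:**
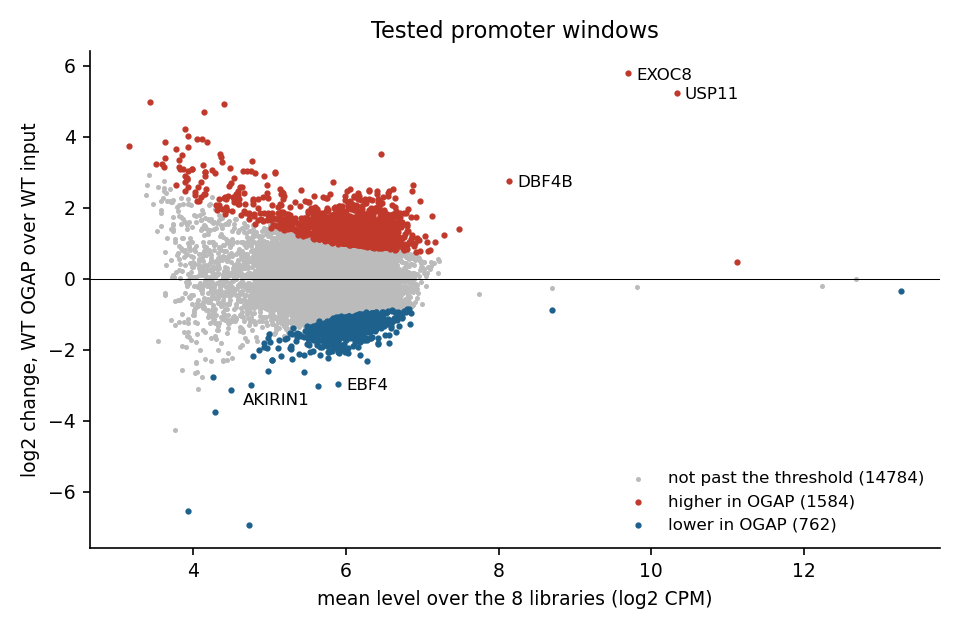
Each point is 1 of the 17130 tested promoter windows: the x axis gives its mean level over the 8 libraries in log2 CPM and the y axis the log2 change of WT OGAP over WT input. Red points are the 1584 windows higher in OGAP and blue points the 762 lower; EXOC8 and USP11 lie far above all other labelled windows.

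Among windows that overlap no other window, the strongest over-representation was at USP11, which encodes a deubiquitinase. Its window (chrX:47231689-47233689, hg38) held 1338 and 1052 OGAP reads against 77 and 55 input reads. Both OGAP libraries stood far above both inputs, and the log2 change was 5.23 ± 0.22 (SE). DBF4B, an activating subunit of the CDC7 kinase that starts DNA replication, came next with 179 and 221 OGAP reads against 63 and 58 in input, a log2 change of 2.76 ± 0.26. The remaining 10 windows of this group were changed between 1.84 and 2.50 on the log2 scale, well below USP11. GSTA4, a glutathione transferase that detoxifies the lipid peroxidation product 4-hydroxynonenal, held 57 and 94 reads against 39 and 29 (log2 2.18 ± 0.31). BBC3, the p53-induced death factor PUMA, held 68 and 82 reads against 52 and 34 (log2 1.84 ± 0.29). Since the OGAP libraries were shallower than the inputs, nearly equal or higher raw counts stand for higher levels: BBC3 was at 193 and 217 CPM in OGAP and 70.5 and 44.1 CPM in input.

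The other windows of these 12 include genes known for germ cells and genes of broad use. TEX46 and PIWIL3, a PIWI protein of the germ line, held 36 and 64 and 48 and 61 OGAP reads against 20 and 16 and 23 and 24 input reads. EFCAB9, a calcium sensor of the sperm CatSper channel, held 44 and 53 against 22 and 18. FOLR2, a folate receptor of macrophages, held 54 and 53 against 20 and 24, and OLAH, a thioesterase of fatty acid synthesis, 49 and 50 against 21 and 22. MED18 of the Mediator complex held 54 and 58 reads against 31 and 21, and UTP25, a ribosome assembly factor, 37 and 58 against 19 and 16. ATP5MGL, an ATP synthase subunit-like gene, held 56 and 71 against 29 and 26. In all 12 windows both OGAP CPM values exceeded both input values, which the choice of windows required, and all 12 remained past the threshold under every alternative run.

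In the lower direction, the 12 named windows with the smallest p that overlap no other window were changed between -3.03 and -1.73 on the log2 scale. EBF4, a transcription factor of the early B cell factor family, held 3 and 5 OGAP reads against 55 and 77 input reads, a log2 change of -2.97 ± 0.49. ATRNL1, a membrane protein related to attractin, held 5 and 12 against 84 and 92 (log2 -2.32 ± 0.39). The homeobox gene SIX5 held 11 and 6 against 67 and 92, the homeobox gene GBX2 9 and 6 against 63 and 68, and SOX12 10 and 6 against 54 and 86. In these 3 windows every OGAP count was far below every input count. The zinc finger genes ZBTB48 and ZNF592 held 7 and 18 and 4 and 11 OGAP reads against 86 and 95 and 59 and 73 input reads. MYH9, a non-muscle myosin heavy chain, held 8 and 18 against 85 and 104, and LAMC1, a laminin chain of basement membranes, 12 and 12 against 76 and 89. TSPAN17, a tetraspanin, held 17 and 8 against 85 and 102, and CNNM4, a magnesium transporter, 4 and 15 against 73 and 76. AKIRIN1, a nuclear protein, had the lowest OGAP counts of the group, 3 and 2 against 40 and 47 (log2 -3.03 ± 0.58). These 12 windows also passed under every alternative run, and 11 of them had an adjusted p for the difference between KD and WT above 0.05.

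**Figure D2:**
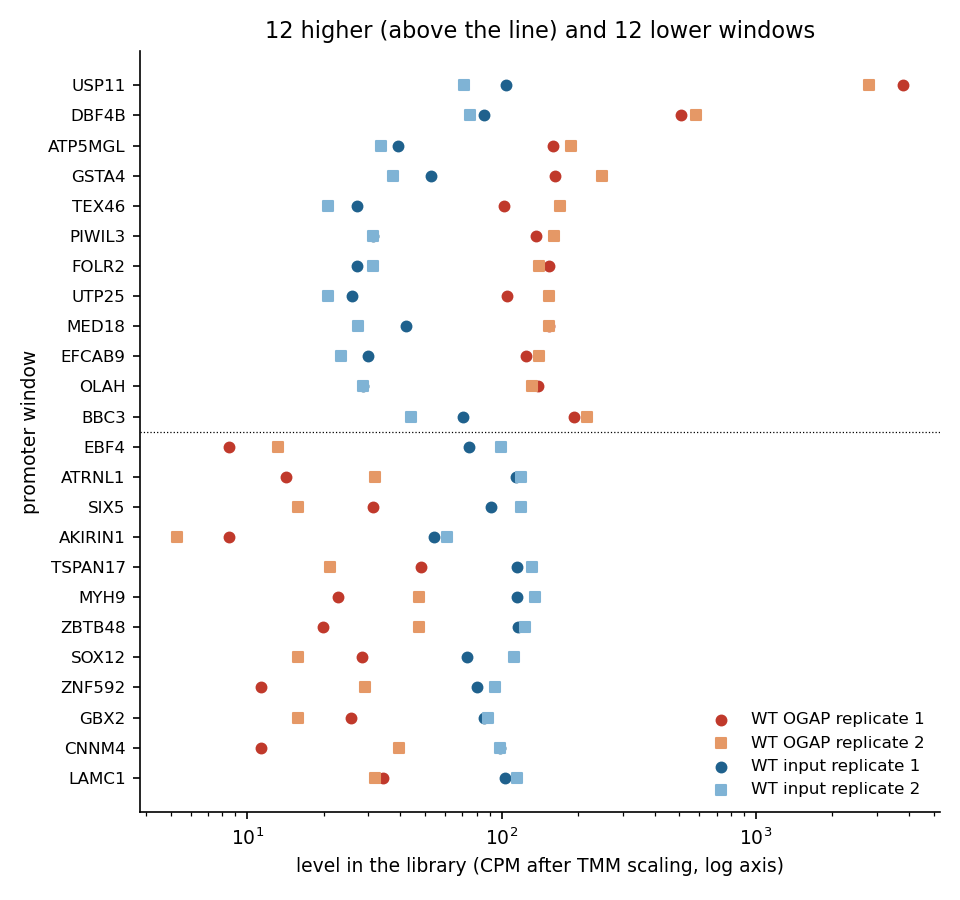
The x axis gives the level in CPM on a log axis and the rows are the 24 windows with the smallest p among named windows that overlap no other; each row has 4 points, red shades for WT OGAP and blue shades for WT input. USP11 lies at 3800 and 2780 CPM in OGAP against 104 and 71.4 in input, and AKIRIN1 at 8.52 and 5.28 against 54.2 and 61.0.

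The kind of promoter that separated the directions most clearly was its base composition. RefSeq promoter sequences of 300 bases (250 before and 50 after the start) were matched to 11292 windows, of which 9856 were tested, and these were split into 5 quintiles by their G plus C content. In the quintile with the lowest GC (median 44.7%), 223 of 2101 tested windows were higher in OGAP and 22 lower. In the quintile with the highest GC (median 76%), 23 of 2017 were higher and 232 lower. The share called higher went from 10.6% and 11.5% in the lower quintiles through 5.93% and 4.07% to 1.14%, and the share called lower from 1.05% and 1.28% through 3.63% and 5.69% to 11.5%. The median log2 changes were 0.27, 0.12, -0.07, -0.24 and -0.46 from the lowest to the highest quintile, against -0.02 over all tested windows. The matched sequences cover 57.5% of the tested windows, so these values describe the windows with a sequence and not every called window. Windows without a sequence were called higher more often, 925 of 7274 against 659 of 9856 with one, and so were windows with no gene name, 584 of 4028 against 1000 of 13102 named ones.

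The same pattern held in reads summed over each quintile, which do not depend on calls. Windows of the lowest GC quintile took 10.1% and 10.7% of the promoter reads in the OGAP libraries and 9.21% and 8.19% in the inputs, a log2 ratio of 0.263. Windows of the highest GC quintile took 10.4% and 9.99% in OGAP and 13.4% and 14.4% in input, a log2 ratio of -0.444. The OGAP and input libraries did not overlap in any of the 5 quintiles. With 2 libraries against 2, an exact permutation test cannot give a two-sided p below 0.333, which is the p of each of these ratios. Leaving out 1 WT library at a time gave ratios from 0.179 to 0.346 in the lowest quintile and from -0.501 to -0.387 in the highest. Input levels rose with GC while OGAP levels were nearly flat: the Spearman correlation of GC with log2(CPM + 1) over 9856 windows was 0.38 and 0.48 in WT input and 0.05 and -0.02 in WT OGAP. The GC content of a window can change how well its fragments are amplified and sequenced in either kind of library, and the part of this in the gradient was not tested.

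**Figure D3:**
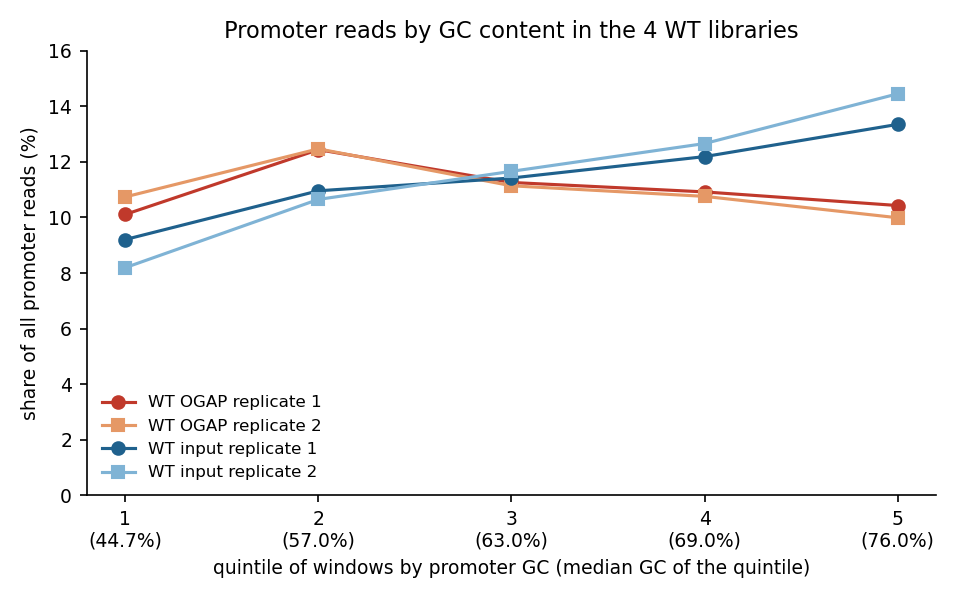
The x axis gives the quintiles of windows by promoter GC with the median GC of the tested windows and the y axis the share of all promoter reads in percent, with 1 line per WT library. The input lines climb to 13.4% and 14.4% in the highest quintile, where the OGAP lines are at 10.4% and 9.99%.

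Adjusting for GC, which by construction removes the gradient, left calls in both directions. With a per-library GC offset, the median log2 change lay between -0.03 and 0.02 in every quintile. In the lowest GC quintile the offset left 104 windows higher and 29 lower, against 236 and 13 for the same windows without it. In the highest GC quintile it left 99 higher and 30 lower, against 25 and 159. Across the 9856 windows the offset gave 593 higher and 158 lower, against 703 and 319 without it. Among the 383 and 43 windows that remained called without each WT library, the median promoter GC was 56% for the 132 higher windows with a sequence and 74.3% for the 30 lower ones. Of these, 47 of the higher windows lay in the lowest GC quintile and 2 in the highest, and 0 of the lower windows lay in the lowest and 18 in the highest.

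CpG density moved with GC content, and its pattern within GC quintiles differed between them. The observed over expected CpG ratio compares the count of CpG with that expected from the C and G content, and falls where CpG has been lost by deamination of methylated C. In its lowest quintile 248 of 2164 windows were higher and 16 lower, and in its highest quintile 81 of 1832 were higher and 135 lower. Within the lowest GC quintile the median log2 change was 0.31 in the lowest CpG class (1351 windows) and 0.13, 0.09, 0.16 and 0.28 in the next 4. Within the middle GC quintile the medians of the 5 CpG classes lay between -0.12 and -0.02 with no order by class. Within the highest GC quintile they fell in order through the 4 classes that held windows, at -0.31, -0.42, -0.45 and -0.51. Spearman's rho with the log2 change was -0.37 (Pearson's r -0.34) for GC and -0.25 (Pearson's r -0.24) for the CpG ratio over 9856 windows that share libraries and depth.

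Promoter motifs were counted on both strands of the 300 bases, and overlaps among motifs were allowed. The GC box GGGCGG, the site of SP-family factors, was in 60.8% of all 11292 sequences and the G run GGGGGG, which shares letters with it, in 21.2%. Windows with a GC box had 266 of 5894 higher and 389 lower, and windows without one 393 of 3962 higher and 67 lower. In the lowest GC quintile the median log2 change was 0.10 for the 230 windows with a GC box and 0.28 for those without, in the middle quintile -0.04 and -0.11, and in the highest -0.46 and -0.45. The ETS site CCGGAAG, in 15.3% of sequences and typical of housekeeping promoters, had higher medians in its presence in 4 of the 5 GC quintiles. In the middle GC quintile, windows with it had a median log2 change of 0.12 and 38 of 350 higher, and windows without it -0.11 and 73 of 1522 higher. In the second GC quintile the medians were 0.27 with and 0.08 without the site, in the fourth -0.14 and -0.26, and in the highest -0.37 and -0.47. The lowest GC quintile was the exception, with 0.06 for the 83 windows with the site and 0.27 for those without. The TATA box TATAAA, in 9.57% of sequences, had medians of 0.09 with and -0.10 without it over all windows. Within no GC quintile was the median higher with TATA. It was 0.265 with and 0.267 without in the lowest quintile, 0.10 and 0.12 in the second, and -0.23 and -0.06 in the middle. In the fourth it was -0.47 for 56 windows with TATA and -0.23 for those without, and in the highest -0.68 for 47 windows and -0.45. These are descriptions of letters in the window and were given no test.

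Windows that took few reads in input were over-represented and windows that took many were under-represented. Windows were split by their CPM in the KD input libraries, whose counts are not part of the WT log2 change. Only tested windows were split, and the read filter for testing used all 8 libraries, WT OGAP included. The lowest quintile reached down to 0.73 CPM in KD input, and windows at that level were tested because of reads in other libraries. The part of this selection in the pattern was not tested. In the lowest quintile 461 of 3426 windows were higher and 26 lower (median log2 0.30), and in the highest quintile 139 were higher and 358 lower (median -0.33). The lowest quintile took 13.2% and 13.8% of WT OGAP reads and 10.9% and 9.84% of WT input reads. GC moves with this split, and within the middle GC quintile the medians still went from 0.08 to -0.19 across the input quintiles.

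Gene length and the surroundings of a promoter showed smaller differences. Promoters of the longest genes (quintile median 152 kb in length) had 104 of 2744 higher and 162 lower, with a median log2 change of -0.24, while the other 4 quintiles had medians between -0.06 and 0.01. The longest genes took 13.2% and 13.1% of OGAP reads and 15.3% and 15.5% of input reads. Within GC quintiles the longest and the shortest genes had similar medians, 0.18 and 0.19 in the lowest and 0.04 and 0.09 in the second. In the middle they were -0.17 and -0.18, in the fourth -0.37 and -0.30, and in the highest -0.49 and -0.59. The length classes between them had higher medians in every GC quintile. Isolated promoters, with 0 to 5 other windows within 500 kb, had 161 of 3586 higher and 161 lower (median -0.16). Promoters with 15 to 27 neighbours had 394 of 3318 higher and 134 lower (median 0.07), and those with 27 to 71 had 397 of 3377 higher and 164 lower (median 0.03). Inside the lowest GC quintile the medians of these 3 classes were 0.15, 0.38 and 0.26, inside the fourth -0.40, -0.07 and -0.21, and inside the highest -0.50, -0.40 and -0.45. Overlapping windows on opposite strands were named divergent where the gene starts point apart and convergent where they point toward each other. The names describe starts and not gene ends. Tested windows that overlap another were called higher more often: 110 of 732 convergent and 45 of 344 divergent, against 1401 of 15830 that overlap none. They were called lower less often, 14 and 11 of these windows against 726. Only 732 of 1400 convergent and 344 of 1606 divergent windows had enough reads to be tested. The effect of this selection on the calls was not tested. Reads that fall in shared bases may be missing from both windows.

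Chromosome 19, which is rich in genes and zinc finger clusters, was the most over-represented. It had 210 of 1233 windows higher and 48 lower, with a median log2 change of 0.23. Its windows took 9.18% and 9.10% of OGAP reads and 7.75% and 7.93% of input reads, a log2 ratio of 0.222. Chromosome 16 had 105 of 734 higher, and chromosome 22 had 49 higher and 34 lower of 389. Chromosome 18 had the lowest share called higher among the nuclear chromosomes shown, 8 of 233, with 13 lower and a log2 ratio of -0.174. Chromosome 10 was the only autosome besides chromosome 18 with more windows lower than higher, 57 against 53 of 664. The copy number of a chromosome is shared by OGAP and input from the same cells, and no label says that the OGAP and input libraries came from the same DNA preparation.

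**Figure D4:**
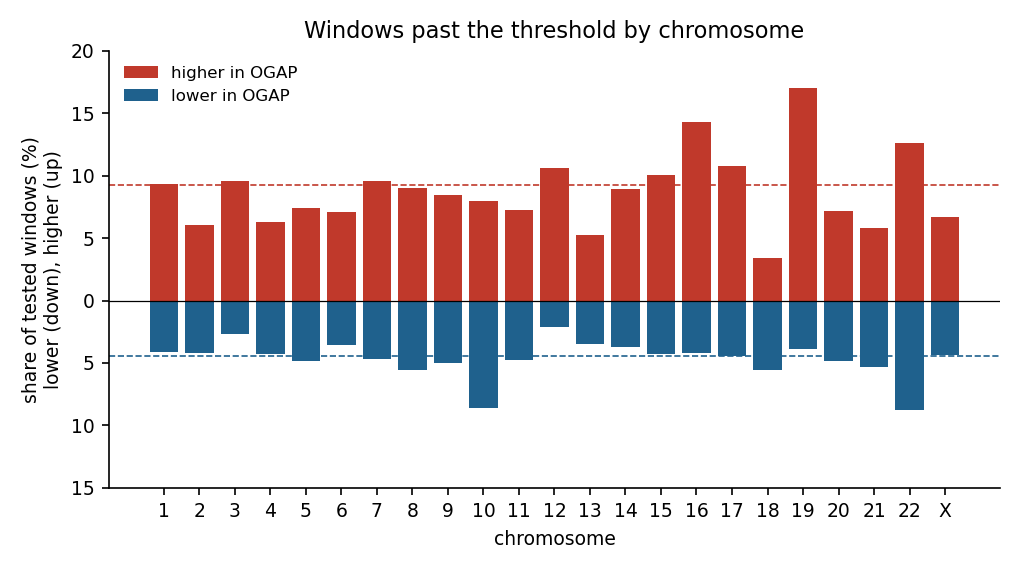
The x axis gives the chromosome and the bars the share of tested windows higher in OGAP (up, red) and lower (down, blue) in percent; dashed lines mark 9.25% and 4.45% over all windows. Chromosome 19 has the tallest bar up, with 210 of 1233 windows, and chromosomes 10 and 22 have the longest bars down, at 8.58% and 8.74%.

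Among gene families, the lists of developmental regulators had several of the lowest medians, and their called windows were nearly all lower in OGAP. For reference, the highest GC quintile had 11.5% lower, 1.14% higher and a median log2 change of -0.46. The ephrin list had a median promoter GC of 69%. The lists were not compared with other windows of the same GC, so whether they differ from GC-rich promoters in general was not tested. In the list of forkhead factors 8 of 39 tested windows, or 20.5%, were lower and 1 higher, against 4.45% lower and 9.25% higher over all windows, and the median log2 change was -0.59 against -0.02. Of SOX, PAX, TBX and GATA factors 5 of 39 were lower and 0 higher (median -0.52), and of homeobox genes outside the HOX clusters 9 of 60 were lower and 0 higher (median -0.48). WNT, FGF and BMP ligands, which pattern tissues, had 8 of 44 lower and 0 higher (median -0.56). Ephrins and their receptors had 3 of 18 lower (median -0.48), and Kruppel-like and ZIC/GLI factors 4 of 24 lower (median -0.21), both with 0 higher. Both counts are too few to tell from the 4.45% lower over all windows. Single windows of the developmental lists had low OGAP counts throughout: FOXD4 held 8 and 8 OGAP reads against 45 and 59 in input (log2 -1.64), and BMP7, a bone morphogenetic protein, 11 and 8 against 45 and 74 (log2 -1.59). KLF13 held 9 and 8 against 47 and 74 (log2 -1.77). Without WT input replicate 2 these 3 windows no longer passed (log2 -1.48, -1.23 and -1.45), and without WT OGAP replicate 2 FOXD4 (-1.59) and BMP7 (-1.33) did not.

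Lists of channels, receptors and adhesion genes also had negative medians, and their counts stand against 4.45% lower and 9.25% higher over all windows. The shares called lower were above that background in potassium channels (11.3%) and the phosphatase and kinase list (15.7%, median promoter GC 72.7%). In neurotransmitter receptors (11.8%), collagens (10.3%) and cadherins (9.52%) the shares rested on few windows. These were 4 of 34, 3 of 29 and 2 of 21, too few to tell from the background. The shares were near it in sodium and calcium channels (6.67%), metalloproteinases (5.77%), kinesins (3.33%) and myosins (6.45%), which is no result about those lists. No list was given a test. Potassium channels had 8 of 71 windows lower and 2 higher (median -0.39), sodium and calcium channels 2 of 30 lower and 0 higher (median -0.51), and glutamate, GABA and glycine receptors 4 of 34 lower and 0 higher (median -0.31). GRID1, a glutamate receptor subunit of the delta type, held 19 and 17 OGAP reads against 94 and 116 in input (log2 -1.49 ± 0.33), and KCNE2, a small potassium channel subunit, went the other way with 44 and 52 against 28 and 27 (log2 1.84 ± 0.33). Dual-specificity phosphatases and MAP kinases had 8 of 51 lower and 0 higher (median -0.39), and cadherins 2 of 21 lower and 0 higher (median -0.37). Matrix metalloproteinases and ADAM proteases had 3 of 52 lower and 0 higher (median -0.27), kinesins 1 of 30 lower and 0 higher (median -0.29), and collagens 3 of 29 lower and 2 higher (median -0.15). The myosin heavy chains had 2 of 31 lower, among them MYH9, and 1 higher (median -0.09).

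Lists of basic cell machinery had mostly positive medians. Their shares called higher were 17.6% in the proteasome list and 15.4% in the spliceosome list, and from 10% to 12.5% in the mitochondrial ribosomal, complex I, synthetase, replication, nucleoporin and RNA polymerase lists, near the 9.25% over all windows, of which 4.45% were lower. Spliceosome and SR proteins had 6 of 39 windows higher and 0 lower (median 0.24), proteasome subunits 6 of 34 higher and 1 lower (median 0.07), and mitochondrial ribosomal proteins 5 of 41 higher and 1 lower (median 0.30). Complex I genes had 2 of 20 higher (median 0.30), aminoacyl-tRNA synthetases 3 of 26 (median 0.33), DNA replication genes 3 of 24 (median 0.23) and nucleoporins 2 of 16 (median 0.15), each with 0 lower. SNRNP35, a protein of the minor spliceosome, held 49 and 53 OGAP reads against 35 and 34 (log2 1.60 ± 0.32). The proteasome inhibitor PSMF1 held 40 and 44 against 24 and 32 (log2 1.63 ± 0.34), and the leucyl-tRNA synthetase LARS1 42 and 47 against 29 and 30 (log2 1.63 ± 0.33). RNA polymerase subunits had 2 of 19 higher and 1 lower (median -0.11), and RAB GTPases, which direct vesicle traffic, 3 of 43 higher and 1 lower (median -0.15). RAB25, an epithelial member, held 67 and 76 against 44 and 57 (log2 1.55 ± 0.28).

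Lists of tissue-restricted genes also had mostly positive medians, but most of their shares called higher lay near or below the 9.25% over all windows (4.45% lower). The share was 15.8% in the testis list, 11.8% in C-type lectins, 12.1% in transferases, 10.9% in interleukins, 10.3% in defensins, 6.38% in chemokines and 4.65% in the leukocyte receptors. Genes named for testis expression, SPATA and PIWI genes had 9 of 57 higher and 1 lower (median 0.20). C-type lectins had the highest median of the lists, 0.65, with 2 of 17 higher and 0 lower, and defensins had 3 of 29 higher and 0 lower (median 0.36). Interleukins and their receptors had 5 of 46 higher (median 0.07), chemokines and their receptors 3 of 47 (median 0.17), leukocyte LILR, SIGLEC and MS4A receptors 2 of 43 (median 0.20), and transferases of the UGT and GST families 4 of 33 (median 0.15), each with 0 lower. MS4A8 held 35 and 52 OGAP reads against 26 and 18 (log2 2.01 ± 0.36), and the interleukin receptor chain IL3RA 53 and 49 against 34 and 34 (log2 1.63 ± 0.33). The drug-metabolising CYP2C8, whose promoter is 34% G or C, held 38 and 46 against 23 and 24 (log2 1.88 ± 0.35), while cytochromes P450 as a list had 4 of 42 higher and 4 lower (median -0.04). Solute carriers had 18 of 286 higher and 14 lower (median -0.13), TRIM ligases 5 of 51 and 3 (median -0.05), orphan receptors coupled to G proteins 6 of 58 and 3 (median -0.16), and serpins 3 of 24 and 2 (median 0.18). Keratins had 1 of 45 higher (median -0.02), taste receptors 1 of 23 (median 0.04) and cornified envelope proteins 0 of 22 (median 0.15), with 0 lower. Nuclear receptors had 2 of 22 in each direction (median -0.32), and X-linked cancer-testis genes 1 of 33 higher and 2 lower (median 0.13).

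**Figure D5:**
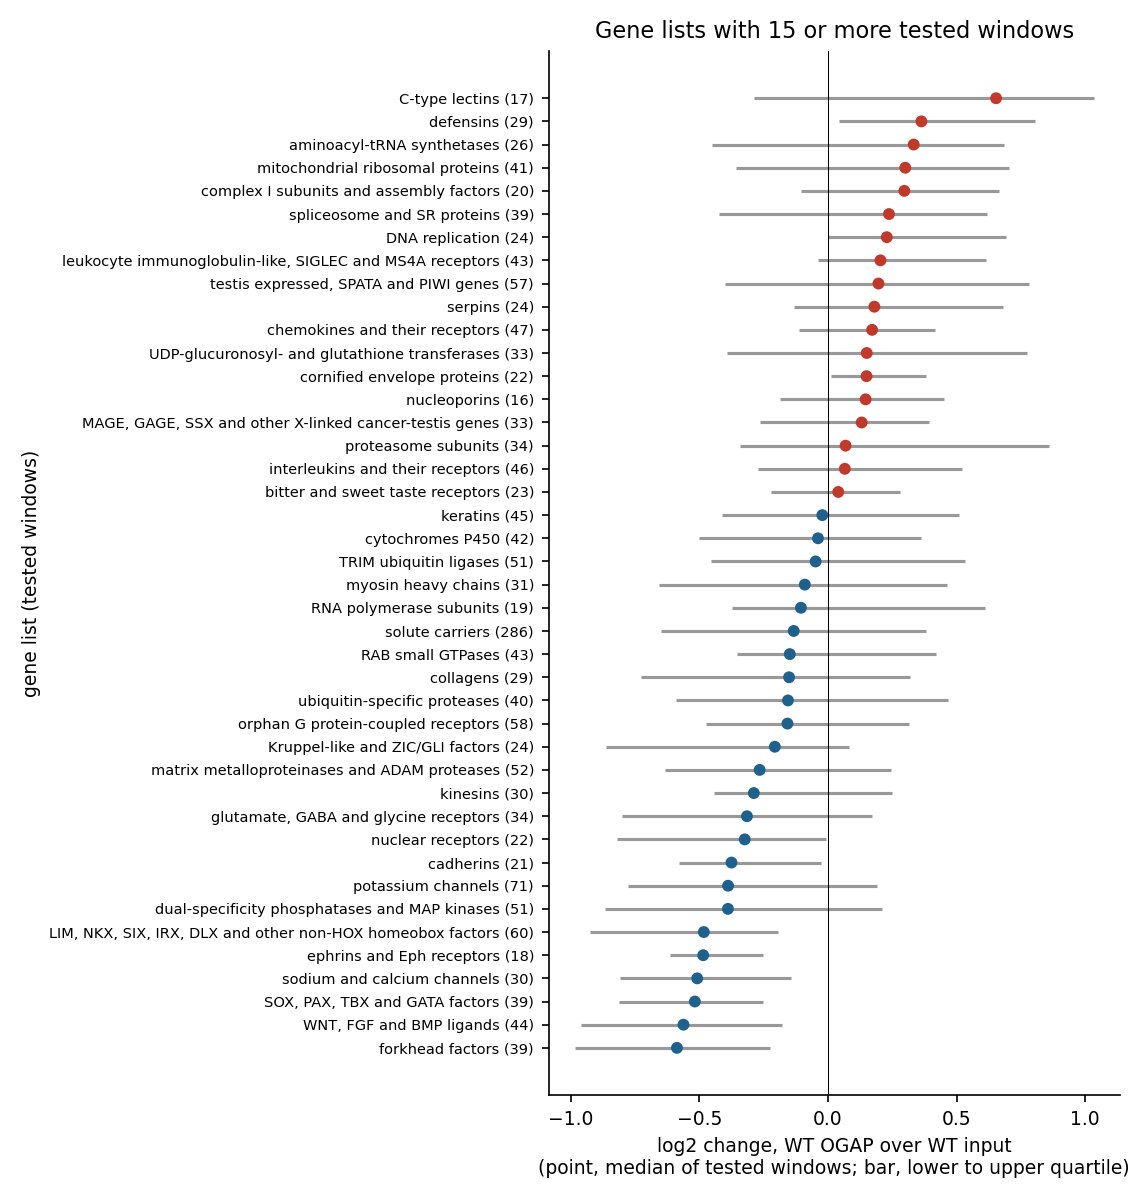
Each row is a gene list with 15 or more tested windows (their number in brackets); the x axis gives the log2 change of WT OGAP over WT input, with a point at the median and a bar from the lower to the upper quartile. Forkhead factors lie lowest at -0.59 and C-type lectins highest at 0.65.

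Ubiquitin-specific proteases and the exocyst, a complex that tethers secretory vesicles, each held 1 extreme window. The proteases had 4 of 40 windows higher and 3 lower, with a median of -0.16 against 5.23 for USP11. A further member, USP30, a mitochondrial deubiquitinase whose window overlaps a divergent one, held 43 and 38 reads against 13 and 12 (log2 2.73 ± 0.40). The exocyst list had 1 of 7 higher and 0 lower (median -0.28). Its called window, EXOC8, held 832 and 694 OGAP reads against 42 and 15 in input (log2 5.78 ± 0.27), and it overlaps a neighbouring window, so reads in the shared bases may be missing from its counts.

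The genes of base excision and AP-site repair, which act on the lesion the assay recovers, were measured at their own promoters. Of 18 windows in the list, 14 were tested, 3 were higher and 0 lower, against 9.25% higher and 4.45% lower over all windows, and the median log2 change was 0.25 against -0.02. A count of 3 windows is too few to tell from the share over all windows. PARP1, which senses DNA strand breaks, held 63 and 69 OGAP reads against 47 and 52 (log2 1.46 ± 0.29) and passed under every alternative run. PARP2 held 39 and 28 against 25 and 26 (log2 1.44 ± 0.36) and did not pass without WT OGAP replicate 1 (1.11). The glycosylase NEIL1 held 46 and 39 against 29 and 51 (log2 1.14 ± 0.33) and did not pass without WT OGAP replicate 1 (0.95), without WT input replicate 1 (0.80) or with DESeq2 (1.14). OGG1 itself held 40 and 50 OGAP reads against 68 and 42 in input, a log2 change of 0.75 ± 0.30 with an adjusted p of 0.0825 by edgeR. The OGG1 inputs differed from each other by more than its OGAP libraries did, and without WT input replicate 1 the change was 1.16 and passed. The glycosylases SMUG1 (log2 0.73 ± 0.36), MUTYH (0.55 ± 0.53), NTHL1 (0.25 ± 0.72), NEIL2 (0.11 ± 0.36), UNG (-0.12 ± 0.34), NEIL3 (-0.35 ± 0.48) and MPG (-0.99 ± 0.67) did not pass. Neither did the ligase LIG3 (0.25 ± 0.99), the polymerase POLB (0.06 ± 0.42) or the endonuclease APEX2 (-0.59 ± 0.41). The windows of MBD4, NUDT1, TDG and APEX1 overlap another window and held 0 to 2 reads in each WT library, so they were not tested.

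Mitochondrial windows held the most reads of all named windows. ND5, a complex I subunit encoded in mitochondrial DNA, held 3054 and 3230 OGAP reads against 8667 and 7832 in input, a log2 change of -0.35 ± 0.12. COX2, a subunit of cytochrome oxidase, held 936 and 1059 against 1507 and 1491, a change of 0.46 ± 0.16. Both passed the threshold, and both lost the call when WT OGAP replicate 1 was left out (-0.37 and 0.48), when WT OGAP replicate 2 was (-0.34 and 0.42) or when WT input replicate 1 was (-0.25 and 0.48). COX2 also lost it without WT input replicate 2 (0.41), and both lost it without KD input replicate 1 (-0.36 and 0.45), without KD input replicate 2 (-0.36 and 0.45) and with the replicate block (-0.34 and 0.46). ND1 (-0.02 ± 0.13) and COX1 (-0.21 ± 0.14) did not pass. The COX1 and COX2 windows share bases, and mitochondrial windows as a whole took 2.23% and 2.34% of OGAP reads and 2.90% and 2.50% of input reads.

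The KD libraries were used to test where OGAP over input differed between KD and WT. The WT and KD changes rest on different libraries, but all 8 libraries share the estimate of the spread. A test of the difference between KD and WT in OGAP over input called 1 of 17130 windows (0.00584%), at AKIRIN1, with an adjusted p of 0.0303 by edgeR, and 1395 windows had an unadjusted p under 0.05. At AKIRIN1 the WT libraries held 3 and 2 OGAP reads against 40 and 47 in input, and the KD libraries 37 and 29 against 28 and 32, so the WT change was -3.03 and the KD change 0.57 ± 0.38. Without WT OGAP replicate 2, KD OGAP replicate 1, KD OGAP replicate 2 or KD input replicate 2, this test called 0 windows. The windows called higher in WT had a median log2 change of 0.62 in KD, and those called lower -0.36, against 1.34 and -1.28 in WT. In KD 93.2% and 84.0% of them kept the sign. These windows were chosen by their WT values, so their smaller KD medians cannot be read as a difference between KD and WT. The log2 share ratios of the lowest and highest GC quintiles were 0.163 and -0.215 in KD, against 0.263 and -0.444 in WT, and the difference between these ratios was not tested. Knockdown acts on RNA, so the promoter DNA counted here does not check it.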

How the data were processed

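OGAP and input DNA of RPE1 cells were sequenced in 2 libraries per group, 4 groups in all. The deposited table holds raw read counts per promoter window made by the authors. The submitters' processing notes list BWA 0.7.17-r1188, bedtools, featureCounts and MACS2 with the build hg38, with no roles given. The counts were tested with edgeR 4.0.16 (R 4.3.3): filterByExpr, TMM scaling and a quasi-likelihood fit of 4 group means over 8 libraries, with the adjusted p (Benjamini-Hochberg) called under 0.05. The spread of each window had 4 residual degrees of freedom, against 98.4 for the prior pooled over windows. Each SE printed was derived from the log2 change and the F statistic of this fit. DESeq2 1.42.0 was an alternative. The test was checked on simulated data. Total promoter reads ran from 368593 to 771138 per library.

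Windows were named by position: 14916 windows are centred no more than 500 bp from a single RefSeq protein-coding gene start, strand matching, against 183 after a shift of 200 kb. Sequences of 300 bases matched 11292 windows (chromosome 8 has none). Classes were quintiles of windows, and their read shares were compared per library. The genes named are the 12 higher and 12 lower windows with the smallest p that are named, overlap no other window and have separated CPM values, up to 3 per direction in each of 44 gene lists (a selection is printed), all base excision members, and the 5 windows with the highest OGAP CPM. Members and lists were chosen with earlier results of these data known. Chromosome Y was left out of the chromosome comparison, and metagene tables were not used here. Same-numbered OGAP and input libraries did not deviate together (correlation -0.034 in WT, 0.013 in KD).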

Additional observations from a re-analysis of the deposited data

Results flagged for a closer look

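AKIRIN1 differed between KD and WT in OGAP over input by 3.6 on the log2 scale (± 0.71 SE, adjusted p 0.0303 by edgeR), with WT at -3.03 and KD at 0.57. The spliceosome and SR protein list took a larger share of reads in both WT OGAP libraries than in both inputs (log2 0.243) and a smaller one in both KD OGAP libraries (log2 -0.018), and this difference was not tested. At MPG, an alkyl-adenine glycosylase, both WT OGAP libraries were below both inputs (log2 -0.99 ± 0.67) and both KD OGAP libraries above both KD inputs (log2 0.57 ± 0.56), with an adjusted p of 0.658 for the difference by edgeR. AKIRIN1 came from the test of all 17130 windows, the spliceosome list from 65 classes and MPG from 56 named windows.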

How the results depend on the processing

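The counts of windows higher and lower in WT OGAP moved with DESeq2 (742 and 142), with a GC offset (593 and 158), and among windows with a GC value but no offset (703 and 319, chosen after seeing the data), where fewer windows are tested. No label says whether same-numbered OGAP and input libraries are pairs. With few reads per window, the correlations of their deviations (-0.034 in WT, 0.013 in KD) could miss a pairing. The fit with the replicate block gave 1407 and 589, or 519 and 124 with the GC offset. Leaving out 1 library at a time gave 683 to 1609 higher and 207 to 844 lower. The test between KD and WT called 1 window, and 0 to 6 when 1 library was left out. It called 3 with RLE size factors, without a count filter, with a mean of at least 20 reads and in windows that overlap no other, and 0 with DESeq2, the replicate block, the GC offset or both, with 590, 1235, 720 and 669 windows at an unadjusted p under 0.05.

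The log2 share ratio stayed between 0.179 and 0.346 in the lowest GC quintile and between -0.519 and -0.387 in the highest under all alternatives run. Of 65 classes, 2 changed sign. The exocyst share fell to -0.525 without overlapping windows and -0.447 without the 1% of windows with the most reads, both of which leave out EXOC8. The ubiquitin-specific protease share was -0.048 on autosomes and -0.066 without the top 1%, both without USP11, and -0.003 as a mean over windows. Of 43 called windows named in the report, 36 passed under every alternative run.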
